A study of Mus musculus with 4 samples.

Results

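The 55 genes described here read at least 2-fold higher in fibroblasts without PTIP than in fibroblasts with it, in each of the 2 same-numbered pairs of arrays. They were taken from 18193 genes by a rule that used those ratios: each gene was represented by its brightest probe set with a single gene symbol, signals below 48 were raised to 48, and the ratio of PTIP -/- over PTIP +/+ had to reach 2 in replicate 1 and again in replicate 2. In all, 61 genes met it, which is 0.335% of all genes and 0.609% of the 10012 that read 96 or more on both PTIP -/- arrays, the level needed to pass. In the other direction 90 genes, or 0.495%, were at least 2-fold lower in both numbers. Of the 61 genes that were higher, 6 were left out by name (Plat, Pkp2, Trp53inp1, Il18, Krt6a and Gsta4). The rule chose the genes on the genotype ratio, so that ratio is a description here and carries no test.

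The cells were immortalized mouse embryonic fibroblasts carrying loxP-flanked PTIP alleles. The PTIP -/- group was infected with a retrovirus encoding Cre recombinase, which cuts out the flanked DNA, and the PTIP +/+ group with the empty vector. Both were grown in medium with 10% serum and selected with puromycin at 2.5 µg/ml. RNA from each group was hybridised to 2 Affymetrix arrays, labelled replicate 1 and replicate 2 in each genotype. Nothing in the labels tells what the numbers refer to (an infection, a culture, a day), so any p-value measures only the spread between these arrays, and the vector controls lack Cre, so that loss of PTIP and exposure to Cre cannot be told apart.

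PTIP is encoded by Paxip1 and carries BRCT domains. It belongs to the MLL3/MLL4 histone methyltransferase complexes, which place methyl groups on lysine 4 of histone H3 at enhancers and promoters and are known mainly for helping genes to be switched on. It also takes part in the repair of DNA breaks. The 55 genes are not a known pathway and code for secreted proteins, membrane receptors, channels, signalling proteins and enzymes.

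The 4 arrays had a common trimmed mean, and their medians were 98.2 and 82.8 in PTIP -/- and 83.5 and 76.0 in PTIP +/+. Paxip1 itself read 43.5 and 74.6 in PTIP -/- against 1029.5 and 1040.1 in PTIP +/+. Of the 16 fibroblast markers, 15 were on the arrays, and their signals summed to 209850.9 and 167478.5 in PTIP -/- and to 225321.2 and 223288.0 in PTIP +/+. Marker lists of 6 other cell types summed to 360.3 to 9548.0 per list in PTIP -/- and to 412.4 to 4932.8 in PTIP +/+. The limma fit over 12509 genes called 0 higher and 0 lower (Benjamini-Hochberg adjusted p under 0.05). At an unadjusted p under 0.05, 168 (1.34%) were higher and 118 (0.943%) lower, a split that became 76 and 204 with arrays centred on their medians.

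The scaling of the arrays decided much of the membership. Centring each array on its median shifted the median log2 change of all genes to -0.12, against 0.05 as deposited, and the rule then kept 24 of the 55 genes, and with quantile normalization 40. Kcnj15, Cmtm3, Acad10 and Asb16 are described first, as the gene with the highest ratios and the genes that mark the set.

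Kcnj15 encodes Kir4.2, an inwardly rectifying potassium channel. It read 884.6 and 607.0 in PTIP -/-, against 80.3 and 5.1 in PTIP +/+. The ratio was 11.02 in replicate 1 and, with the +/+ signal raised to 48, at least 12.65 in replicate 2, so that the lower PTIP -/- array stood 7.56-fold above the higher PTIP +/+ array. No other of the 55 genes reached 4 in both numbers.

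Cmtm3 encodes a MARVEL-domain membrane protein of the chemokine-like factor family. It was among the brightest of the 55 genes, at 2213.9 and 2489.0 in PTIP -/- against 1039.0 and 792.1 in PTIP +/+ (log2 change 1.37 ± 0.40, SD of the 2 same-numbered differences). The genotypes did not overlap, and the lower PTIP -/- array lay 2.13-fold above the higher PTIP +/+ array. Acad10, of the acyl-CoA dehydrogenase family, whose best-known members carry out the first step of fatty acid oxidation, read 259.4 and 232.1 in PTIP -/- against 99.2 and 88.4 in PTIP +/+. Its ratios, 2.61 and 2.63, were nearly the same in the 2 numbers, but its probe set name ends in x_at, the mark of probes that may bind other transcripts. Asb16, which encodes an ankyrin-repeat protein with a SOCS box, read 200.6 and 151.1 in PTIP -/- against 75.2 and 61.3 in PTIP +/+. Its lowest PTIP -/- array was 2.01-fold above its highest PTIP +/+ array.

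The stretches of 250 bases before the annotated starts of these 4 genes are shown because they span the range of CpG content among the promoters of the set, CpG dinucleotides being what sets apart the promoters of broadly used genes from many tissue-restricted ones. The sequences come from RefSeq on GRCm38.p6 and run 5′ to 3′ on the strand of the gene, with each CpG in capitals. Kcnj15 lies on the plus strand at chr16:95257308-95257557, Cmtm3 on the plus strand at chr8:104340344-104340593, Acad10 on the minus strand at chr5:121660511-121660760 and Asb16 on the plus strand at chr11:102268501-102268750.
Kcnj15: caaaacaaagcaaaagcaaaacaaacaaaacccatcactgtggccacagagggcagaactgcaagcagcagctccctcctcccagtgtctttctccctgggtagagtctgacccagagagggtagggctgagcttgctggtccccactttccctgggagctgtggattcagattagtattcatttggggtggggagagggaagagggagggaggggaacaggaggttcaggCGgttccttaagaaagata
Cmtm3: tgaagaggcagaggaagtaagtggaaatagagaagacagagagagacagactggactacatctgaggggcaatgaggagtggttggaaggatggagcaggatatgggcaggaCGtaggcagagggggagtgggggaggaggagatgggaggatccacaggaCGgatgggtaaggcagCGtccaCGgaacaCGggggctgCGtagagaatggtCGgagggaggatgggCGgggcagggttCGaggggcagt
Acad10: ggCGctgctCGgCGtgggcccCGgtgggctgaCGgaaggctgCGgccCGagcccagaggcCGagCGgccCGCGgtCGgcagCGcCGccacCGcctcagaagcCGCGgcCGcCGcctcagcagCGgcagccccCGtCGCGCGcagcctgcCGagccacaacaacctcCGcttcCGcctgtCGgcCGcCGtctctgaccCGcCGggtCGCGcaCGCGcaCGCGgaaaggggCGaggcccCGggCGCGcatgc
Asb16: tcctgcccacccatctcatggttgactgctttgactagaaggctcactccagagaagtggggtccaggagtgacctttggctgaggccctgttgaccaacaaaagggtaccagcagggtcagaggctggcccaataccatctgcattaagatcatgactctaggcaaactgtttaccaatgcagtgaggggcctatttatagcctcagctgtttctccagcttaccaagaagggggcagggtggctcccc
These stretches hold 1 CpG in Kcnj15, 9 in Cmtm3, 42 in Acad10 and 0 in Asb16.

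Across all 55 genes the ratio ran from 2.01 to 11.02 in replicate 1, with a median of 2.32, and from 2.00 to 12.65 in replicate 2, with a median of 2.69. The median was thus well below 3 in both numbers. It was larger in replicate 2 for 35 genes and larger in replicate 1 for 20. The geometric mean of the 2 PTIP -/- signals ran from 103 to 2666 with a median of 300, and 19 of the 55 genes stayed under a mean of 200. In 22 genes at least 1 PTIP +/+ array lay below 48, and in 7 of these both did, so that their folds are lower bounds. The genes nearest to the threshold from inside were Car15, Ttc12 and Prxl2a, with smaller ratios of 2.00, 2.01 and 2.01. From outside they were Radil at 1.995, Dsg2, which is left out by name as well, at 1.97 and Tgfbi at 1.96.

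**Figure D1:**
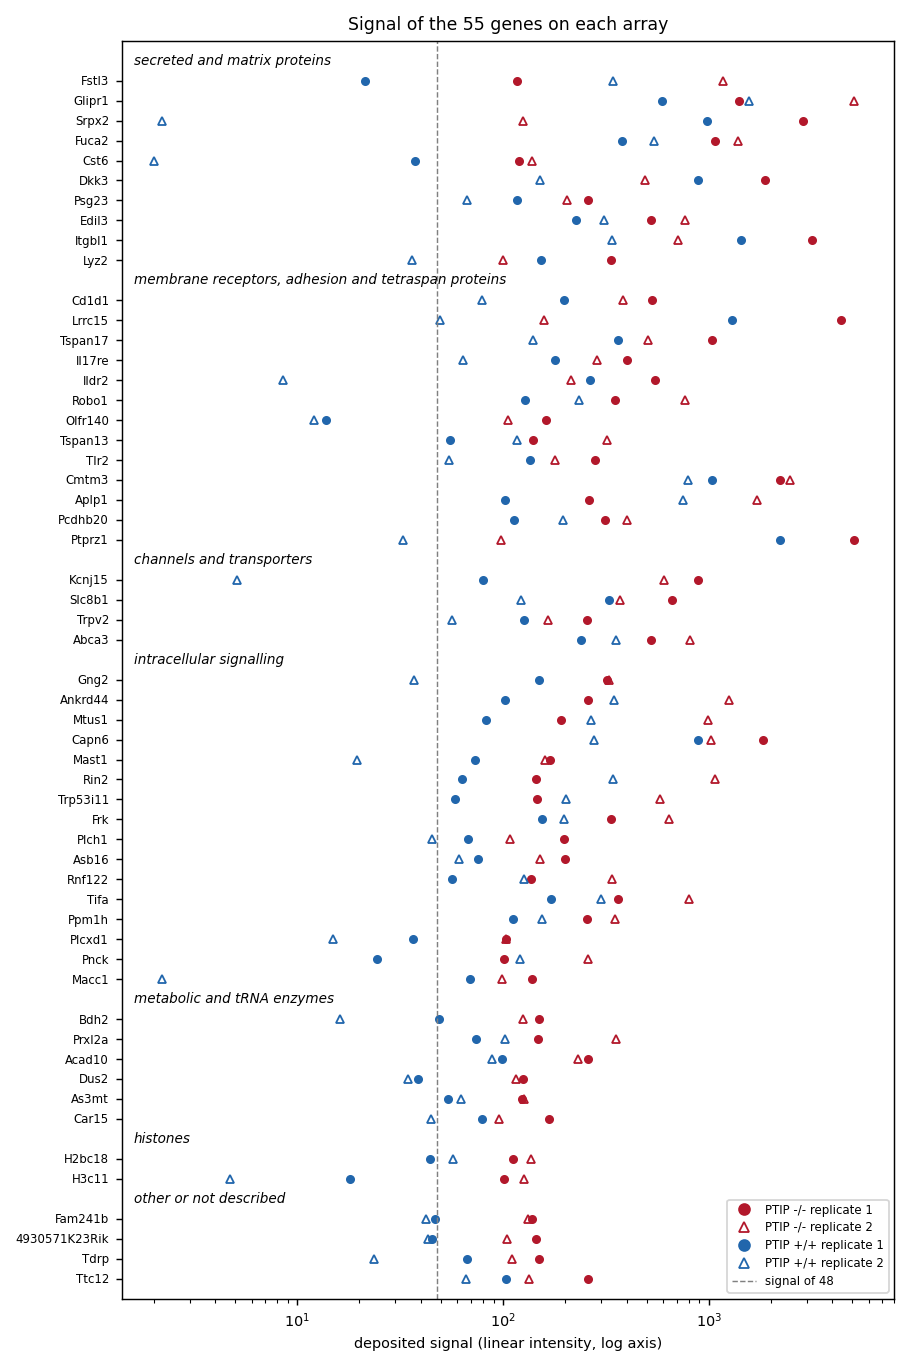
Deposited signal of the 55 genes on each of the 4 arrays (log axis), grouped by the role of the protein. PTIP -/- is in red and PTIP +/+ in blue, filled circles are replicate 1 and open triangles replicate 2, and the dashed line marks a signal of 48. In each gene the red symbol lies right of the blue symbol of the same shape, and in 40 of the 55 both red symbols lie right of both blue ones. Of the 10012 genes at 96 or more on both PTIP -/- arrays, 17.1% had that order. The rule used the genotype contrast, so nothing is read from the difference.

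Among the 10 genes for secreted and matrix proteins, folds ran from 2.13 to 2.90. Glipr1, of the CAP superfamily of cysteine-rich proteins, was the brightest, at 1404.2 and 5062.1 in PTIP -/- against 590.3 and 1574.4 in PTIP +/+. Fuca2, an alpha-L-fucosidase that is mostly secreted, read 1076.7 and 1391.8 in PTIP -/- against 381.1 and 544.4 in PTIP +/+. Fuca2 did not overlap between the genotypes, while Glipr1 did, because PTIP +/+ replicate 2 stood above PTIP -/- replicate 1.

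Itgbl1, a secreted protein with repeats like those of integrin beta chains, read 3187.6 and 711.7 in PTIP -/- against 1433.1 and 340.6 in PTIP +/+. Dkk3, a secreted member of the Dickkopf family, read 1876.4 and 488.5 in PTIP -/- against 883.4 and 151.2 in PTIP +/+. Srpx2, a secreted sushi-repeat protein, read 2866.1 and 125.2 in PTIP -/- against 978.9 and 2.2 in PTIP +/+. In Itgbl1, Dkk3 and Srpx2 replicate 1 was the brighter number in both genotypes, by more than the difference between the genotypes, and the genotypes overlapped. Fstl3, which binds and blocks activins, was the reverse, at 117.1 and 1174.9 in PTIP -/- against 21.3 and 341.6 in PTIP +/+. Edil3, a secreted ligand of integrins, lay between 2.34 and 2.46 in its ratios, and the cystatin Cst6, an inhibitor of cysteine proteases, was below 48 on both PTIP +/+ arrays and at least 2.68-fold higher in PTIP -/-. Psg23 belongs to the family of pregnancy-specific glycoproteins, whose close copies may share probes, and read 2.22-fold and 3.08-fold higher.

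Lyz2, lysozyme 2, a gene known for its high level in macrophages, read 333.3 and 99.9 in PTIP -/- against 153.4 and 36.0 in PTIP +/+. The 12 macrophage and blood markers, Lyz2 among them, summed to 1662.0 and 1129.2 in PTIP -/- and to 1220.9 and 961.3 in PTIP +/+. Of the 12, 3 were higher within both numbers (Lyz2, Fcer1g and Csf1r) and 0 lower, and the rule had chosen Lyz2 as higher. Over all 12509 tested genes, 33.2% were higher and 25.3% lower within both numbers. Laptm5, Cd74, Cd68, Adgre1 and Tyrobp were higher in replicate 1 and lower in replicate 2, and Cd14 and Ptprc the reverse. Fcer1g, an Fc receptor chain, read 142.2 and 50.7 in PTIP -/- against 40 and 10.3 in PTIP +/+. Csf1r, the macrophage growth factor receptor, read 278.2 and 226.0 in PTIP -/- against 277.0 and 218.1 in PTIP +/+, a log2 change of 0.03. Ptprc (CD45), which marks blood cells, read 34.8 and 51.5 in PTIP -/- against 51.8 and 11.4 in PTIP +/+. The part of such cells in the Lyz2 signal was not tested.

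The 13 genes for receptors, adhesion and tetraspan proteins had folds of 2.16 to 3.59. Lrrc15, a leucine-rich repeat membrane protein of mesenchymal cells, read 4407.5 and 159.1 in PTIP -/- against 1303.6 and 49.2 in PTIP +/+. Ptprz1, a receptor tyrosine phosphatase, read 5063.9 and 98.3 in PTIP -/- against 2216.0 and 32.5 in PTIP +/+. Both were far dimmer in replicate 2 of either genotype, and both overlapped between the genotypes. Aplp1, a relative of the amyloid precursor protein, was bright in replicate 2 instead, at 261.0 and 1712.9 in PTIP -/- against 102.3 and 751.5 in PTIP +/+.

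Cd1d1, which presents lipid antigens to natural killer T cells, read 532.4 and 382.3 in PTIP -/- against 199.0 and 79.2 in PTIP +/+. Its probe set name ends in s_at, the mark of probes that can match more than 1 transcript. Robo1, a receptor for Slit guidance proteins, read 348.7 and 764.8 in PTIP -/- against 127.4 and 235.2 in PTIP +/+. Cd1d1 and Robo1 did not overlap between the genotypes.

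The tetraspanins Tspan17 and Tspan13 organise other proteins in the membrane. Tspan17 read 1033.4 and 506.9 in PTIP -/- against 363.4 and 140.1 in PTIP +/+. Tspan13 read 139.9 and 320.6 in PTIP -/- against 55.1 and 117.0 in PTIP +/+. They were brightest in opposite numbers, and neither overlapped between the genotypes. The innate immune receptor Tlr2 was 2.61-fold higher, the interleukin 17 receptor chain Il17re 3.18-fold and the protocadherin Pcdhb20, from a cluster of similar genes, 2.38-fold. The olfactory receptor Olfr140, at 13.8 and 12.1 in PTIP +/+, was at least 2.73-fold higher in PTIP -/-, where it read 162.4 and 106.0. Ildr2 was at least 3.06-fold higher, but it overlapped between the genotypes and its probe set name ends in x_at. The other probe sets of Ildr2 gave log2 changes of 0.28 and, with every array below 48, 0.

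The 4 channels and transporters were Kcnj15, Abca3, Slc8b1 and Trpv2, and none of the 4 overlapped between the genotypes. None differed at least 2-fold between the replicate numbers in both genotypes, so the rule itself kept them from overlapping. Abca3, which moves lipids into the lamellar bodies of lung cells, read 525.8 and 812.5 in PTIP -/- against 240.6 and 354.8 in PTIP +/+. Slc8b1, the mitochondrial sodium-calcium exchanger, was 2.49-fold higher, and the cation channel Trpv2 2.45-fold.

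The 16 genes for intracellular signalling had folds of 2.04 to 3.83. Capn6, a calpain that lacks the catalytic cysteine, read 1832.1 and 1030.3 in PTIP -/- against 888.9 and 275.9 in PTIP +/+. Ankrd44, a regulatory ankyrin-repeat subunit of protein phosphatase 6, read 258.9 and 1250.7 in PTIP -/- against 102.5 and 348.2 in PTIP +/+. Ankrd44 overlapped between the genotypes and Capn6 did not.

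Gng2, a G protein gamma subunit, had unequal ratios, 2.15 in replicate 1 and at least 6.84 in replicate 2. The kinase Frk, a relative of Src, had ratios of 2.17 and 3.23, and the phosphatase Ppm1h, which acts on Rab proteins, 2.30 and 2.26. The Rab5 exchange factor Rin2, the microtubule-associated Mtus1 and the p53-inducible Trp53i11 were all bright in replicate 2 and 2.69-fold, 2.94-fold and 2.66-fold higher in PTIP -/-. Tifa, an adaptor of TRAF proteins, was 2.39-fold higher and Rnf122, a RING-finger ubiquitin ligase, 2.54-fold. Mast1 and Pnck, both kinases, the phospholipases Plch1 and Plcxd1, and Macc1, a regulator of the MET receptor, each had a PTIP +/+ array below 48 and were at least 2.04-fold to 2.77-fold higher.

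None of the 6 genes for metabolic and tRNA enzymes overlapped between the genotypes, and their mean PTIP -/- signals stayed between 119.7 and 245.4. The rule fixed this lack of overlap too, since none of the 6 differed at least 2-fold between the replicate numbers in both genotypes. Bdh2, a short-chain dehydrogenase of ketone body and siderophore metabolism, read 148.9 and 125.7 in PTIP -/- against 48.9 and 16.2 in PTIP +/+. Prxl2a, a peroxiredoxin-like protein, read 148.4 and 356.2 in PTIP -/- against 73.8 and 102.3 in PTIP +/+. Car15, a carbonic anhydrase, read 167.1 and 96.1 in PTIP -/- against 79.5 and 44.5 in PTIP +/+. As3mt, which methylates arsenic, was 2.15-fold higher.

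Dus2, which turns uridine into dihydrouridine in tRNA, read 124.5 and 115.1 in PTIP -/- against 38.7 and 34.6 in PTIP +/+ and was at least 2.49-fold higher. A second Dus2 probe set read 25.5 and 104.3 in PTIP -/- against 31.1 and 107.3 in PTIP +/+, a log2 change of -0.02. The difference in Dus2 therefore rested on a single dim probe set whose name, too, ends in x_at. With the mean of all probe sets of a gene in place of the brightest, Dus2, Acad10 and Glipr1 were among 18 genes that no longer met the rule.

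The remaining genes were dim, with none above 258.2 on any array. Fam241b read 138.7 and 132.6 in PTIP -/- against 46.9 and 42.2 in PTIP +/+, and Ttc12, needed to assemble the dynein arms of cilia, 258.2 and 133.6 in PTIP -/- against 103.5 and 66.4 in PTIP +/+. Neither overlapped between the genotypes. Tdrp was at least 2.26-fold higher. Also in the set were the RIKEN clone gene 4930571K23Rik, at least 2.57-fold higher, and 2 histone genes, H2bc18 and H3c11, whose current symbols the rule does not exclude as it does the older names of histone genes. Both histone genes lay at or under 136.6 on all arrays, and without them the set has 53 genes.

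**Figure D2:**
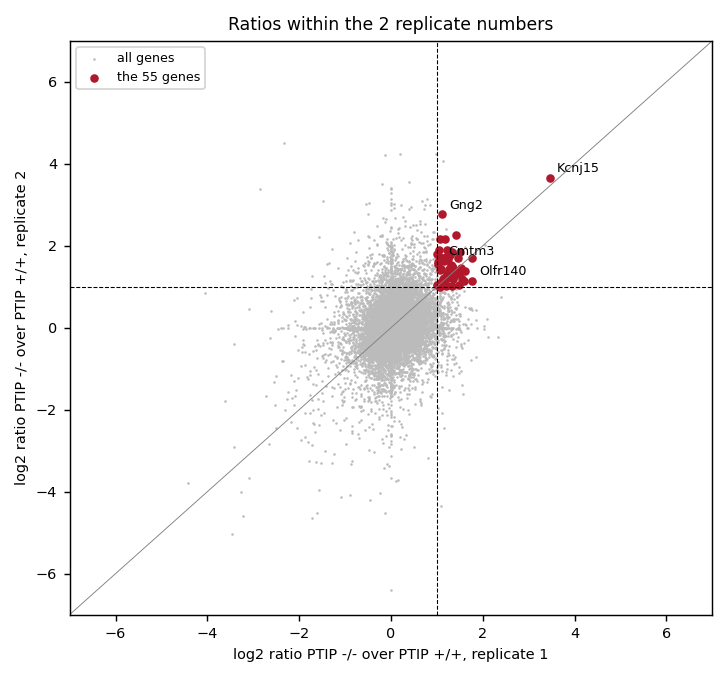
Ratio of PTIP -/- over PTIP +/+ for all 18193 genes, with replicate 1 on the horizontal axis and replicate 2 on the vertical axis (both log2, signals below 48 raised to 48). The 55 genes, in red, lie in the corner beyond the dashed lines at a 2-fold ratio, where the 6 genes left out by name also lie, in grey. Among the 55, Kcnj15 stands apart at ratios of 11.02 and 12.65.

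When arrays were set side by side across the replicate numbers, 40 of the 55 genes had both PTIP -/- arrays above both PTIP +/+ arrays. Of the 10012 genes that read 96 or more on both PTIP -/- arrays, the level the rule demands, 17.1% had this order, but the rule used the genotype contrast and nothing is read from the comparison. In 14 genes (25.5%) the gap was at least 2-fold, against 17 (0.17%) of the 10012. Any gene with such a gap meets both ratios, so the 17 are these 14 genes with Il18, Krt6a and Gsta4, which were left out by name. Nothing is read from this comparison either. Outside the 40, the other 15 of the 55 genes overlapped, and all 15 were among those that differed at least 2-fold between the numbers in both genotypes. The rule makes this certain: when both ratios reach 2, the genotypes can overlap only in such genes.

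The rule did not use the difference between the replicate numbers directly. For a number of the genes that difference was larger than the one between the genotypes. Ratios of at least 2 in both numbers tie the number difference in PTIP -/- to that in PTIP +/+. The shares below are thus not independent of the rule. In 10 genes replicate 2 was at least 2-fold above replicate 1 in both genotypes, which is 18.2% of the set, against 3.04% of the 10012 genes. In 8 genes (14.5%) replicate 1 was at least 2-fold above replicate 2 in both genotypes, against 2.32%. The 10012 genes were not matched to the 55 on signal, and the comparison carries no test. Ptprz1 marks one end, with replicate 1 above replicate 2 by 51.5-fold in PTIP -/- and at least 46.2-fold in PTIP +/+, and Fstl3 the other, with replicate 2 above replicate 1 by 10.0-fold in PTIP -/- and at least 7.12-fold in PTIP +/+ (the dimmer +/+ array raised to 48 in both genes).

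By genotype, the ratios that the rule used are given for each kind of gene as a description, since the threshold narrows them in all. The 8 genes brighter in replicate 1 had median ratios of 2.25 in replicate 1 and 2.92 in replicate 2. The 10 genes brighter in replicate 2 had 2.42 and 2.99, and the other 37 had 2.30 and 2.63. In 17 of the 55 genes the 2 log2 ratios had an SD under 0.1, and in 6 it was over 0.5. With signals raised to 48, an array at or below that level holds its gene's ratio down, and the threshold narrows the spread in every gene, so nothing is read from the agreement.

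**Figure D3:**
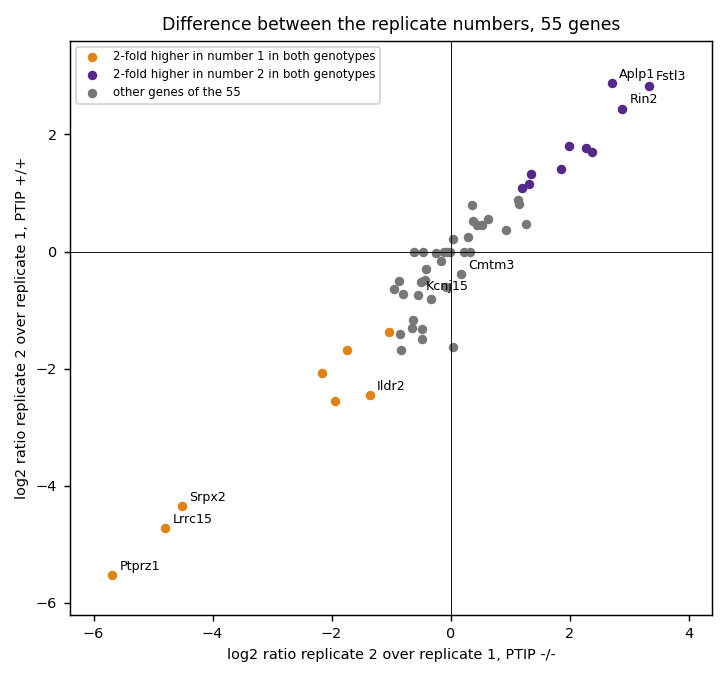
Ratio of replicate 2 over replicate 1 in PTIP -/- (horizontal axis) and PTIP +/+ (vertical axis), both log2 with signals below 48 raised to 48, for the 55 genes. The 8 genes in orange were at least 2-fold brighter in replicate 1 in both genotypes and the 10 in purple in replicate 2, and the points run along the diagonal from Ptprz1 at the lower left to Fstl3 at the upper right. The rule ties the axes to each other, so nothing is read from the diagonal.

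Of the 55 genes, 28 had a single probe set and 27 had 46 more between them. These measure the same RNAs, so they show how far a value depends on its probes and add no replicate. Of all 46, 22 were higher in PTIP -/- within both numbers, 11 of them by at least 2-fold, 5 were lower in at least 1 number, and 19 were lower in none but equal in a number after signals were raised to 48. The log2 change ran from -0.28 to 2.25 with a median of 0.44. In 24 of the 46 both PTIP -/- arrays read at least 48, and the other 22 were below 48 on a PTIP -/- array, 15 of them on all 4 arrays.

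Kcnj15 was higher on a second probe set too, at 274.7 and 173.5 in PTIP -/- against 47.5 and 28.8 in PTIP +/+, while yet another read 52.8 and 36.8 in PTIP -/- against 56.0 and 66.4 in PTIP +/+. Frk was higher on all 4 of its probe sets, with log2 changes of up to 1.63, and so was Gng2, with 1.08 to 1.94. For Kcnj15, Frk and Gng2 the difference thus did not rest on a single set of probes. A second probe set of Acad10, dimmer than the first, gave 64.5 and 85.1 in PTIP -/- against 50.9 and 13.9 in PTIP +/+, a log2 change of 0.58 against 1.39 on the first. The second probe sets of Glipr1 and Il17re, each higher in 1 number and lower in the other, gave 0.24 and 0.60.

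**Figure D4:**
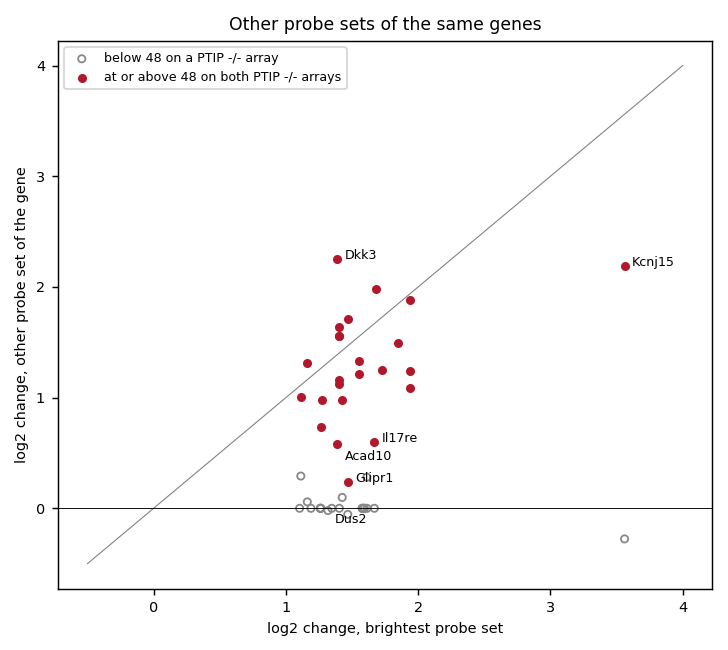
Log2 change (PTIP -/- over PTIP +/+) on the brightest probe set of a gene (horizontal axis) and on each of its other probe sets (vertical axis), with the line of equal values. Filled points, at or above 48 on both PTIP -/- arrays, lie between 0.24 and 2.25, and of the 22 open points, below 48 on a PTIP -/- array, the 15 that were below 48 on all 4 arrays lie at 0 by construction.

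Promoter sequences were at hand for 44 of the 55 genes, with 54 annotated starts, 5 of them of Prxl2a. The 250 bases before the start held a median of 7 CpG dinucleotides and a GC content of 53.6%. The median over all 32851 starts in the table was 6, and over the 10520 starts of genes that read 96 or more on both PTIP -/- arrays it was 16. In 33.3% of the starts of the set there were 3 CpG or fewer, against 8.33% of those 10520 and 37.8% of all starts. Dimmer genes have fewer CpG, so a narrower band of 96 to 500 on both PTIP -/- arrays, chosen after the data were seen, was also read: the median was 5 over 34 starts of the set and 14 over 2933 starts of all genes in the band. The set thus held both CpG-poor starts such as those of Kcnj15 and Asb16 and CpG-rich ones such as that of Acad10, and within the band 38.2% of its starts had 3 CpG or fewer, against 12% of all. Nothing in the rule used sequence, and no test was made.

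Short motifs were searched on both strands of the same 250 bases. The GC box GGGCGG, bound by Sp1, stood in 31.5% of the starts of the set, 59.5% of those of the 10520 and 32.7% of all. The AP-1 element TGANTCA, bound by Fos and Jun proteins, stood in 14.8%, against 4.18% and 6.75%. The 2 patterns TGANTCA and TGACNNNGC can share letters. The 8 starts with TGANTCA belong to 7 genes (Srpx2, Lrrc15, Gng2, Capn6, Macc1, As3mt and Prxl2a). The core of the antioxidant element, TGACNNNGC, stood in 16.7%, against 11.7% and 10.2%, and 4 of the starts held it together with the AP-1 element. They were those of Gng2 and Srpx2 and 2 starts of Prxl2a whose stretches overlap, so that the Prxl2a letters were counted again. TATAAA stood in 11.1%, against 6.12% and 12.4%, CCAAT in 35.2%, against 35.4% and 33.8%, and the E-box CACGTG in 9.26%, against 8.66% and 6.02%. The ETS core CCGGAAGT stood in 0 of the 54, against 6.29% and 2.88%. In the band of 96 to 500 on both PTIP -/- arrays, the GC box stood in 14.7% of the 34 starts of the set, against 54.4% of all 2933. The AP-1 element stood there in 14.7% against 5.08%, and the antioxidant core in 23.5% against 12.6%. TATAAA stood in 11.8% against 6.24%, CCAAT in 44.1% against 35.9%, the E-box in 8.82% against 8.08% and the ETS core in 0 against 5.93%. None of these shares was tested. A match is a run of letters and does not show that a factor binds.

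The genes were spread over 18 chromosomes. Chromosome 10 held 7 of them, and chromosomes 3 and 8 held 6 each. No 2 of them were neighbours. The closest pair, Tlr2 and Cd1d1 on chromosome 3, had 17 protein-coding genes between them.

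The families of the genes that mark the set, and that of Dus2, were read for their other members. The counts and medians below still include Cmtm3, Acad10, Asb16 and Dus2. The rule chose these genes as higher in both numbers, so that part of each higher count was fixed in advance. Of 7 tested members of the CMTM family, 2 were higher within both numbers, Cmtm3 and Cmtm8, and 0 lower. Cmtm8 read 136.8 and 179.0 in PTIP -/- against 102.5 and 50.4 in PTIP +/+, and the bright Cmtm4 and Cmtm7 differed by 0.30 and 0.15 log2. Of 12 acyl-CoA dehydrogenases, 5 were higher and 5 lower within both numbers, around a median log2 change of 0.03, and Acad10 alone was at least 1.5-fold higher in both. Of 10 tested ASB genes, 3 were higher and 1 lower, with a median of 0.08. Of the 4 tRNA dihydrouridine synthases, 1 (Dus2) was higher and 1 lower, with a median of 0.10. Over all 12509 genes tested, 33.2% were higher and 25.3% lower within both numbers, 2.76% by at least 1.5-fold higher, and the median was 0.05. With arrays centred on medians the list medians were 0.10 for CMTM genes, -0.15 for acyl-CoA dehydrogenases, -0.10 for ASB genes and -0.08 for dihydrouridine synthases, around the -0.12 of all genes, of which 16.1% were then higher and 42.6% lower within both numbers. The counts, also taken after the data were seen, became 2 higher and 1 lower for CMTM genes, 4 and 5 for acyl-CoA dehydrogenases, 3 and 3 for ASB genes and 1 and 1 for the synthases.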

How the data were processed

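Affymetrix arrays measured 2 PTIP -/- and 2 PTIP +/+ RNAs. The authors deposited 1 linear intensity for each of 45101 probe sets per array. The submitters' processing notes name RMA, but the deposited intensities are linear and have a trimmed mean of 500.0 on every array (2% off each end). The background correction step was not given in the sources used here. With 2 arrays per genotype, that number limits the precision.

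The 64 control probe sets were dropped. Of the rest, 34945 had 1 symbol, 932 several and 9160 none. Symbols of 34741 were updated through RefSeq gene numbers (GRCm38.p6, names, order and promoters only). The single 0 was set to 0.1 before log2.

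All 18193 genes were compared in limma 3.58.1 (R 4.3.3) where the brightest probe set had a mean at or above the 40th percentile (47.68, 12509 genes, 51 of the 55), adjusted by Benjamini-Hochberg. Changes and ratios in the text use signals raised to 48, and their SD is over the 2 same-numbered log2 ratios. The model code was run on simulated data with less noise than the real arrays, which checks the code and not its power here. Values were printed for Paxip1, the genes given with the rule (Cmtm3, Acad10 and Asb16), the 12 brightest, the 12 with the largest smaller ratio, those nearest the threshold and those in a list; others were chosen after their values were seen. The members and lists were chosen with earlier results of these data known, and the role groups and motifs after the members were known. The alternatives were other normalizations, floors, filters and thresholds, the mean of probe sets, the replicate block and each array left out.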

Additional observations from a re-analysis of the deposited data

How the results depend on the processing

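With the rule changed, the 55 genes became 24 with arrays centred on medians, 24 with a floor of 100, 534 with no floor, 356 at a 1.5-fold threshold and 2 at a 3-fold threshold. One replicate number alone gave 359 to 770. Centring kept 24 of the 55, a floor of 100 kept 24, quantile normalization kept 40 of 55 and the mean of probe sets 37 (of 59 genes). The genes with a 2-fold gap between all arrays, 14, became 9 with centred arrays and 4 with a floor of 100. The cause was not tested, except that a higher floor raises the lower signals by construction. Leaving out 1 array unbalances the numbers, and log2 changes went below 0 for Ptprz1 (-1.73 without PTIP -/- replicate 1, -1.65 without PTIP +/+ replicate 2, range up to 3.96), Srpx2 (-0.79 and -0.71, up to 3.72), Lrrc15 (-0.67 and -0.64, up to 4.12), Aplp1 (-0.09 without PTIP -/- replicate 2, -0.17 without PTIP +/+ replicate 1, up to 2.71), and, without PTIP -/- replicate 2, Fstl3 (-0.13, up to 3.20) and Rin2 (-0.02, up to 2.87). Over all genes, limma called 0 under every alternative, with a smallest adjusted p of 0.462 to 1. With the replicate block it also called 0 (612 higher and 370 lower at an unadjusted p under 0.05, against 168 and 118). In this balanced design the block cannot move a log2 change, so the changes stayed as they were by construction. The deviations of same-numbered arrays correlated at 0.69 across genes, but 2 pairs with no label for the number do not settle a pairing. Signals under 48 cannot be ranked, which bounds 22 of the 55 folds.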

Other observations

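Other programmes in the same arrays are given as counts, with 33.2% of the 12509 tested genes higher and 25.3% lower within both replicate numbers for comparison. Of 27 lysosome genes tested, 20 were higher in PTIP -/- within both numbers and 1 (Scpep1, a serine carboxypeptidase) lower, but 0 by at least 1.5-fold in both. The count depended on the scaling: with arrays centred on their medians, a count added after the data were seen, 10 were higher and 3 lower, against 16.1% and 42.6% of all tested genes. The median log2 change as deposited was 0.41, being 0.14 in replicate 1 and 0.52 in replicate 2, and with centred arrays it was 0.24, being -0.10 and 0.39. Lipa, the lysosomal acid lipase, read 1944.3 and 3014.6 in PTIP -/- against 1444.9 and 1283.9 in PTIP +/+. The sialidase Neu1 read 504.6 and 953.4 in PTIP -/- against 382.2 and 307.4 in PTIP +/+. Lipa and Neu1 both differed more in replicate 2, a contrast that was not tested.

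Autophagy genes had 14 of 23 higher and 3 lower (median 0.21), and p53 targets 16 of 30 higher and 8 lower (0.22). Among p53 targets, Fas, a death receptor, read 100.9 and 300.9 in PTIP -/- against 47.3 and 199.4 in PTIP +/+, while Aen, a nuclease, read 1130.1 and 1538.8 against 1711.7 and 2348.8. With centred arrays 7 autophagy genes were higher and 6 lower (median 0.03), and 8 p53 targets higher and 10 lower (0.04), against a median of -0.12 for all genes. Fatty acid oxidation genes had 7 of 19 higher and 3 lower (0.16). Cpt1a, which admits fatty acids to mitochondria, just missed the rule at 1423.0 and 2885.7 in PTIP -/- against 732.9 and 1328.1 in PTIP +/+. Adaptors of ubiquitin ligases had 15 of 27 higher and 5 lower (0.23), interferon-stimulated genes 4 of 21 higher and 3 lower (0.30) and NRF2 targets 6 of 19 higher and 4 lower (0.05). The median of the interferon-stimulated genes was -0.10 in replicate 1 and 0.65 in replicate 2. The 10 members of the MLL3/MLL4 complex had 3 higher and 3 lower (-0.01). With centred arrays the adaptors had 5 higher and 8 lower (0.05), and the interferon-stimulated genes 2 higher and 4 lower (0.14). Centring turned the medians of fatty acid oxidation genes (-0.02) and NRF2 targets (-0.13) below 0.

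Of the marker lists, fibroblast markers had 0 of 14 higher and 8 lower (median -0.22), epithelial markers 2 of 6 higher and 1 lower (0.01), macrophage and blood markers 2 of 8 higher and 0 lower (0.11), endothelial markers 1 of 4 higher (0.28), neural markers 1 of 6 higher (0.19) and adipocyte markers 1 of 7 higher and 2 lower (0.22). Of the 12 skeletal muscle markers, only 5 reached the signal needed to be tested. Of these, 4 were higher (0.67), namely Des, Actc1, Ckm and Cdh15, and Des and Cdh15 read at most 105.4 on any array. Over all 12 markers, 6 were higher and 0 lower within both numbers. The median without the level filter was 0.23, against 0 for all genes. The remaining tested marker, Acta1, skeletal muscle actin, read 152.8 and 8870.4 in PTIP -/- against 175.7 and 1850.3 in PTIP +/+. Acta1 was thus lower in replicate 1 and higher in replicate 2, and it differed more between the replicate numbers than between the genotypes. With centred arrays the medians of epithelial and macrophage markers were -0.16 and -0.06, and skeletal muscle markers had 3 of 5 higher (0.49). Endothelial, neural and adipocyte markers had medians of 0.11, 0.01 and 0.05. Fibroblast markers then had 0 of 14 higher and 11 lower (-0.4). Of all tested genes with centred arrays, 16.1% were higher and 42.6% lower within both numbers, with a median of -0.12.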
